A study of Mus musculus with 32 samples.

Results

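Gingiva of mice whose upper left molar carried both a ligature and an occlusal build-up was compared with gingiva of untreated mice. The combined group, LiTra, received a silk thread tied round the left upper second molar, which holds bacterial plaque at the gum margin, and composite resin bonded to the biting surface of the same tooth, which overloads it. The control group, Co, had no treatment. The deposited count columns call the resin groups CR and LiCR, which the labels do not spell out, and they were read as Tra and LiTra, the groups with resin. Each group had 4 libraries of poly(A) RNA. These 8 libraries were chosen by their treatment labels alone, out of 16 gingiva libraries and 32 libraries of gingiva and bone in all, and every gene with enough counts entered the comparison. The other gingiva groups were Li, with the ligature only, and Tra, with the resin only, again with 4 libraries each. All groups were wild type male C57BL/6J mice of 9 weeks, an inbred laboratory strain. The labels give neither the time between treatment and sampling nor the time of day, and they do not say whether libraries with the same number came from 1 animal, so a p-value sets the treatment against differences among libraries, which may be partly technical. The series title asks whether occlusal overload worsens bone resorption in ligature-induced periodontitis.

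Gingiva is an oral mucosa with a stratified epithelium. Basal keratinocytes divide, move upward, exchange basal keratins for differentiation keratins and end as flattened cells with a cross-linked protein envelope. Periodontitis is an inflammation of the tissue around the tooth in which neutrophils and macrophages enter the gum and the supporting bone is lost. Bone is removed by osteoclasts, which form from cells of the macrophage line when the cytokine RANKL, gene Tnfsf11, binds its receptor RANK, gene Tnfrsf11a, and the decoy receptor osteoprotegerin, gene Tnfrsf11b, blocks that step.

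The LiTra libraries held 39202498 to 41525475 counts and the Co libraries 39416738 to 42787336. The share of counts without a gene symbol was 0.168 to 0.183% in LiTra and 0.360 to 0.409% in Co, and the 10 most abundant genes held 10.5 to 11.3% of the counts in LiTra and 11.7 to 13.7% in Co. Both shares separated the groups, and their part in the results was not tested. Epithelial, stromal and vessel markers were present in all 8: Krt5 lay between 4624 and 5886 CPM in LiTra and between 4934 and 6671 CPM in Co, and Cdh1, Dcn and Cdh5 were above 0 in each. CPM is a gene's counts divided by its library's TMM-adjusted total, which corrects for composition. Markers of other tissues were present too. The osteoblast gene Ibsp had 190.0 to 305 CPM in LiTra and 72.7 to 179 CPM in Co, so that bone-cell transcripts were in gingiva of both groups. The marrow granule gene Elane was listed at 0 in the 4 LiTra libraries and lay between 0 and 0.575 CPM in Co.

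Several libraries stood apart from their group. The summed CPM of 22 skeletal muscle genes was 772, 183, 319 and 409.8 in LiTra 1 to 4, against 4482, 225, 4755 and 4770.0 in Co 1 to 4, so that Co 2 lay within the LiTra range. The sum of 13 salivary and nasal gland genes was 18, 180.4, 7.32 and 23.4 in LiTra 1 to 4, against 5701, 3751, 2793 and 42.8 in Co 1 to 4, and here Co 4 lay within the LiTra range. LiTra 3, and less often LiTra 2, had lower values of inflammatory genes than LiTra 1 and LiTra 4. In Li, libraries 1 and 2 resembled LiTra in many of these genes, while libraries 3 and 4 often lay lower, between LiTra and Co. The sum of 20 neutrophil genes was 7552, 6397, 1134 and 1064 CPM in Li 1 to 4. The split was not general: the sum of 6 neutrophil-attracting chemokine genes was 1815, 1994, 874 and 1955 CPM in Li 1 to 4. In bulk tissue fewer cells of a type and less RNA per cell cannot be told apart.

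**Figure D1:**
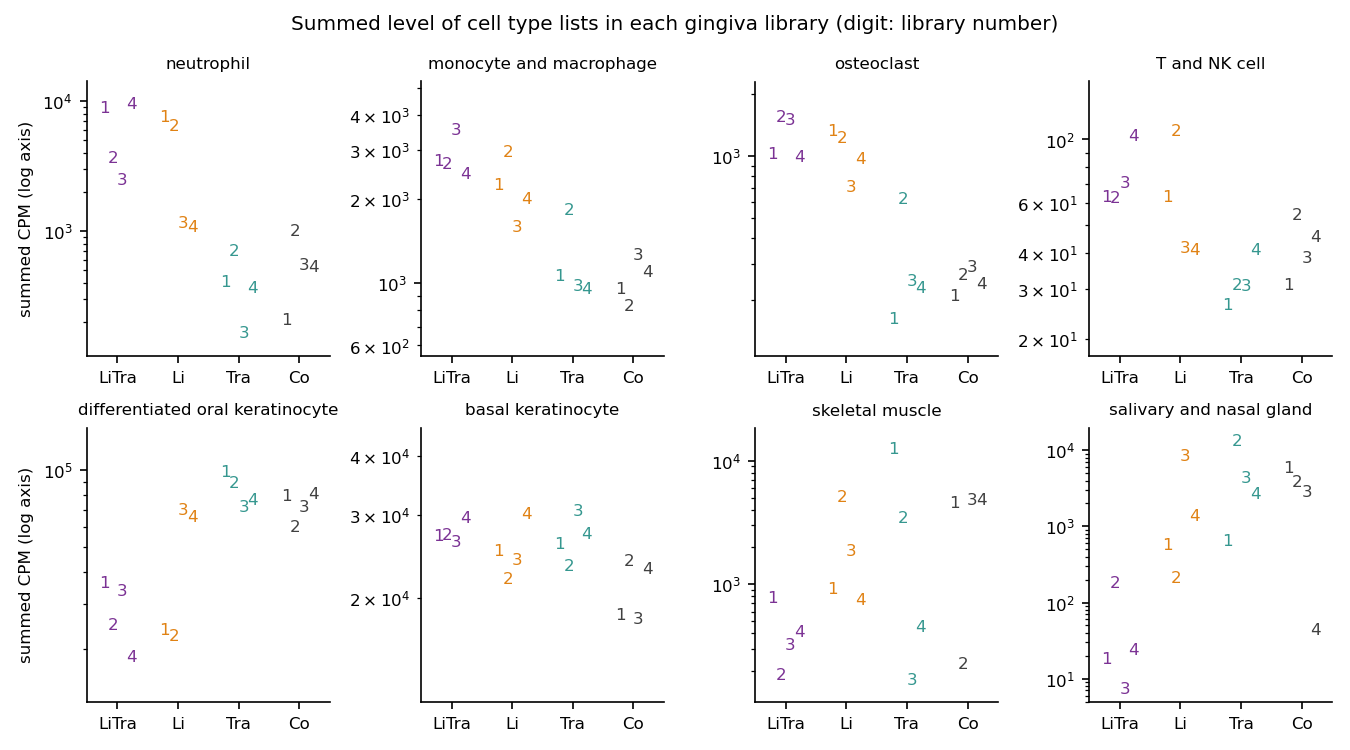
Summed CPM (log axis) of 8 cell type gene lists in each gingiva library, with groups LiTra, Li, Tra and Co along the x axis and each digit giving the library's number. Neutrophil and osteoclast sums of LiTra 1 to 4 lie above those of Co 1 to 4, differentiated keratinocyte sums lie below them, and Co 2 in muscle and Co 4 in gland lie apart from the other Co libraries.

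Of 20143 genes tested, 4611 (22.9%) differed between LiTra and Co at an adjusted p under 0.05, 2305 of them higher (11.4% of all tested) and 2306 lower (11.4%). The test was edgeR's quasi-likelihood test with Benjamini-Hochberg adjustment. A change of at least 2-fold in either direction was seen for 1855 of the called genes (9.21%), 882 higher and 973 lower. Without regard to p, the values of the 4 LiTra and the 4 Co libraries did not overlap for 5744 genes (28.5%), 2928 higher in LiTra (14.5%) and 2816 lower (14.0%). With library totals in place of TMM the split moved to 2893 higher and 1738 lower. Leaving out a library gave between 3189 called genes (without LiTra 4) and 4104 (without Co 2). List counts below are read against the shares of all genes tested, 11.4% higher and 11.4% lower. Below, "rose" and "fell" are used for genes called in LiTra against Co, and log2 fold changes are LiTra over Co. The value after ± is an approximate SE, the absolute log2 fold change divided by the square root of the quasi-likelihood F statistic. It is not a confidence interval. The median log2 fold change over all 20143 genes, −0.01, is the level against which list medians are read.

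**Figure D2:**
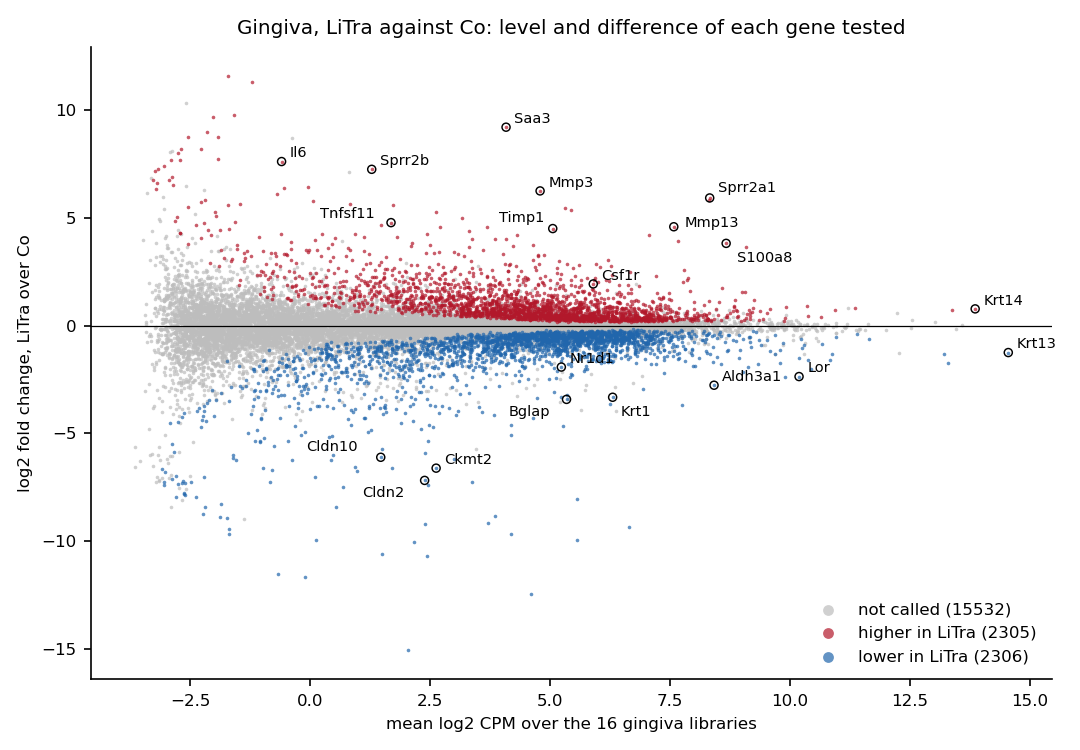
Each point is a gene: mean log2 CPM over the 16 gingiva libraries on the x axis and log2 fold change of LiTra over Co on the y axis, with 2305 genes called higher in red, 2306 called lower in blue and the rest in grey. Saa3, Il6, Sprr2b and Mmp3 are labelled among the genes far above 0, and Cldn2, Ckmt2 and Cldn10 among those far below it.

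Among called genes without overlap and with a mean log2 CPM of 1 or more, the largest increases were Saa3, Sprr2b, Mmp3, Sprr2a1, Sprr2a2, Lrat, Sprr2a3, Serpina3n, Pi15, Sprr2i, Tnfsf11 and Prnd, between 4.66 ± 0.99 for Prnd and 9.22 ± 1.39 for Saa3. Saa3, a serum amyloid A protein made outside the liver in inflammation, had 1196, 554, 136 and 911 CPM in LiTra 1 to 4, against 0.437, 2.16, 0.144 and 1.96 CPM in Co 1 to 4 (edgeR adjusted p = 0.00097). LiTra 3 was the lowest of the 4 LiTra libraries and still far above each Co library. Lrat, the enzyme that esterifies retinol for storage, had 39.1, 31.3, 6.87 and 38.9 CPM in LiTra 1 to 4, against 0.291, 1.05, 0.192 and 0.873 in Co 1 to 4, with LiTra 3 again lowest and no overlap. Serpina3n, a secreted serine protease inhibitor, rose by 5.37 ± 0.79 and Pi15, a secreted peptidase inhibitor, by 5.28 ± 0.68. Prnd, which encodes the prion-like protein doppel, had 16.7, 15.6, 14.2 and 20.7 CPM in LiTra 1 to 4, against 0.437, 0.144, 0.192 and 1.9 CPM in Co 1 to 4, and here LiTra 3 was close to the other LiTra libraries.

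Small proline-rich proteins are cross-linked precursors of the cornified envelope. Of 15 tested members 7 rose and 2 fell, with a median of 1.04. The 7 were Sprr2a1, Sprr2a2, Sprr2a3, Sprr2b, Sprr2g, Sprr2i and Sprr2k, all of the Sprr2 group, whose 5 other tested members, Sprr2d, Sprr2e, Sprr2f, Sprr2h and Sprr2j-ps, differed by 0.54 to 1.65 with overlapping groups and were not called. Sprr2a1 had 3171, 2589, 1664 and 2909 CPM in LiTra 1 to 4, against 23.9, 64.2, 29.4 and 51.7 CPM in Co 1 to 4 (5.93 ± 0.83, edgeR adjusted p = 0.00064). All 4 LiTra libraries lay far above all 4 Co libraries, and Li averaged 1708 and Tra 118 CPM. Sprr2a1, Sprr2a2 and Sprr2a3 are near-identical copies whose reads may be shared, so their values are not separate measurements. Sprr2b had 85.6, 8.39, 17.6 and 84.7 CPM in LiTra 1 to 4, against 0.146, 0.791, 0.312 and 0 CPM in Co 1 to 4, without overlap, with LiTra 2 and LiTra 3 well below LiTra 1 and LiTra 4 and with no call by limma-voom. Sprr2i had 114, 35.2, 26.3 and 73.9 CPM in LiTra 1 to 4, against 1.02, 2.01, 1.94 and 2.72 CPM in Co 1 to 4, again without overlap. The members that fell, Sprr1a and Sprr1b, changed by −1.09 ± 0.30 and −1.26 ± 0.37, and neither was called without Co 4, LiTra 2 or LiTra 4. Sprr3 had 1646, 811, 1063 and 575 CPM in LiTra 1 to 4, against 1510.2, 850.1, 1723 and 1668 CPM in Co 1 to 4, with overlapping groups (edgeR adjusted p = 0.46). Of the weaker increases, Sprr2g was called without LiTra 2 and in no other single omission, and Sprr2k was not called without Co 1, Co 2 or LiTra 1.

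Promoter sequences are shown for Sprr2a1, Sprr2b and Sprr2i because these neighbours in one gene cluster rose together, and for Mmp3, Mmp13, Il6 and Cxcl2 because these genes, described below, rose strongly and are textbook targets of AP-1 or NF-kB, transcription factors of stress and inflammation. Each is the 250 bases before the annotated start in RefSeq on GRCm38.p6, another build than that named for the counts. Capitals mark matches to the AP-1 letters TGANTCA or to the kB letters, GGGA and TTCC with any 2 bases between, searched on both strands, where the reverse complement of the kB letters is GGAA and TCCC with any 2 bases between. Of 32851 RefSeq promoter windows of this length, 6.75% held the AP-1 letters and 1.21% the kB letters. The windows are chr3:92215585-92215834, chr3:92316455-92316704 and chr3:92407741-92407990 for the Sprr2 genes, chr9:7445572-7445821 for Mmp3, chr9:7272264-7272513 for Mmp13, chr5:30012864-30013113 for Il6 and chr5:90903649-90903898 for Cxcl2, all on the plus strand.
Sprr2a1: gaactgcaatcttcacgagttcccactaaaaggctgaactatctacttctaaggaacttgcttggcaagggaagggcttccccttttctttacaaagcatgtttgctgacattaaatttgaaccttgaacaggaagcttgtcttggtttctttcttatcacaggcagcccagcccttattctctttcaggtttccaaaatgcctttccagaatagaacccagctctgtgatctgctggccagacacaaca
Sprr2b: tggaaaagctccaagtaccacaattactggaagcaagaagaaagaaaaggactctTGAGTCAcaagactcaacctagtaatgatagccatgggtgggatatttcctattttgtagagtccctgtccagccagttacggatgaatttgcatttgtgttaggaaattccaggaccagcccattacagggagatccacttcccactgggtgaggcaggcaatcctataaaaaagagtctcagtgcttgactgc
Sprr2i: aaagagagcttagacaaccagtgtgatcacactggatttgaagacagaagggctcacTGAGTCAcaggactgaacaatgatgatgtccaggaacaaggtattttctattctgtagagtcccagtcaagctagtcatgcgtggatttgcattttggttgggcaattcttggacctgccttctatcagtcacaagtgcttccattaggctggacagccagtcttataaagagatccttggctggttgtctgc
Mmp3: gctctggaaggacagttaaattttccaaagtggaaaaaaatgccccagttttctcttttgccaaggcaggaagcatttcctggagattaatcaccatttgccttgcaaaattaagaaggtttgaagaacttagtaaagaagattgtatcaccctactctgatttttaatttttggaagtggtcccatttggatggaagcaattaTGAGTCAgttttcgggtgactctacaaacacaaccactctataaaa
Mmp13: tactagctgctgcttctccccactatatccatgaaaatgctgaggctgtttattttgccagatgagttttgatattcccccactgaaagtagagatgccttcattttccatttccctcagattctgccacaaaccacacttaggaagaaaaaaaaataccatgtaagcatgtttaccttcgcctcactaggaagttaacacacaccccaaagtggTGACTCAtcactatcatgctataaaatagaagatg
Il6: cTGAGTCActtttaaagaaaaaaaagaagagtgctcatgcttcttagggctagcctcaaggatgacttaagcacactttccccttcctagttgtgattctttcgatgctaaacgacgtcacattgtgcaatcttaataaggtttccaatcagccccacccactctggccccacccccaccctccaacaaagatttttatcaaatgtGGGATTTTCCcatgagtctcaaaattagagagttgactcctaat
Cxcl2: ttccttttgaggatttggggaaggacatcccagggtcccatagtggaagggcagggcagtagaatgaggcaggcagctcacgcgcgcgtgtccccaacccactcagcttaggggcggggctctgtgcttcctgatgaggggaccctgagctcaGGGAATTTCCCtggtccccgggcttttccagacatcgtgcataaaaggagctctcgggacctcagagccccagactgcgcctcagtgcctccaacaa
The AP-1 letters lay at positions −195 to −189 from the start in Sprr2b, −193 to −187 in Sprr2i, −46 to −40 in Mmp3, −35 to −29 in Mmp13 and −249 to −243 in Il6, and were not in the Sprr2a1 window. The window of Sprr2a2 was identical to that of Sprr2a1, and that of Sprr2a3 shared a run of 222 bases with it. The kB letters lay at −44 to −35 in Il6, and Cxcl2 had overlapping matches within −97 to −87. Within the family the letters did not separate members by direction. The AP-1 letters were held by 3 of 6 risen members with a RefSeq window, 2 of 2 fallen members and 4 of 5 that were not called. The risen members without them were Sprr2a1, Sprr2a2 and Sprr2a3, whose near-identical windows are not separate cases. Mmp3, Mmp13, Il6 and Cxcl2 were chosen as textbook targets, so their matches cannot be read as enrichment over the shares of all windows. These matches describe letters in a window and not bound sites.

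Keratins of the differentiated layers fell. Of 12 tested genes of differentiated oral keratinocytes 8 fell and none rose, with a median of −1.19, and the summed level was 36109, 24648, 33416 and 18472 CPM in LiTra 1 to 4, against 78589, 59823, 71389 and 80574 CPM in Co 1 to 4, without overlap. Krt10, a keratin of cornifying layers, had 202, 375, 474 and 257 CPM in LiTra 1 to 4, against 1558, 1809, 1451 and 2075 CPM in Co 1 to 4 (−2.40 ± 0.51, edgeR adjusted p = 0.0053). Its partner Krt1 had 27.7, 26, 22.2 and 10.7 CPM in LiTra 1 to 4, against 106, 259.9, 186 and 315 CPM in Co 1 to 4 (−3.32 ± 0.45). For both genes each LiTra library lay below each Co library. Krt76, a keratin of the palate and gingiva, fell by 1.74 ± 0.49 on the log2 scale. Krt13, the keratin of non-cornified oral mucosa, had 19092, 12305, 16187 and 8726 CPM in LiTra 1 to 4, against 35516, 26606, 34097 and 37522 CPM in Co 1 to 4 (−1.25 ± 0.36), with no overlap. Krt4, its partner, changed by −1.30 ± 0.40, and its LiTra 1 value of 9847 CPM lay above the 8687 CPM of Co 2. Krt76 was not called without Co 1, LiTra 1 or LiTra 4, Krt13 not without Co 1, Co 4, LiTra 2 or LiTra 4, and Krt4 was called only when none of these 4, Co 3 or LiTra 3 was left out. The list's count fell to 2 without LiTra 4, to 4 without Co 1 or Co 4 and to 5 without LiTra 2.

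The basal layer did not move as a block. Of 12 tested basal keratinocyte genes 2 rose and 3 fell. Krt14, the main basal keratin, had 18349, 19370.0, 16923 and 20361 CPM in LiTra 1 to 4, against 9693, 12687, 8935 and 12341 CPM in Co 1 to 4 (0.78 ± 0.14, edgeR adjusted p = 0.0015), with each LiTra library above each Co library. Its partner Krt5 had 4967, 4624, 5886 and 5572 CPM in LiTra 1 to 4, against 4934, 6671, 5034 and 6321 CPM in Co 1 to 4, and the groups overlapped (−0.13 ± 0.14, edgeR adjusted p = 0.58). Trp63, the transcription factor that maintains basal keratinocytes, rose by 0.51 ± 0.11. Krt15, a keratin of quiescent basal cells, had 139, 299, 472 and 134 CPM in LiTra 1 to 4, against 1312, 1373, 842 and 1128 CPM in Co 1 to 4, without overlap (−2.16 ± 0.46). Dst, which anchors keratin to the hemidesmosome, and Col17a1, a collagen of the same structure, changed by −0.69 ± 0.14 and −0.64 ± 0.16.

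Among keratins of wounded or stressed epithelium, 2 of 11 rose and 2 fell, with a median of 0.006. Over all genes tested 11.4% rose and 11.4% fell. Krt6b had 14877, 14092, 11126 and 14841 CPM in LiTra 1 to 4, against 6771, 8084, 7588 and 10516 CPM in Co 1 to 4, without overlap (0.74 ± 0.20). Krt17 rose by 0.89 ± 0.25, but LiTra 3 with 1123 CPM lay below Co 2 with 1144 CPM, and the call was lost without Co 1, LiTra 1 or LiTra 4. Krt6a had 11729, 11688, 11768 and 12791 CPM in LiTra 1 to 4, against 10750.0, 12091, 9593 and 14113 CPM in Co 1 to 4, with full overlap (edgeR adjusted p = 0.9). Krt80 fell by 2.19 ± 0.40 on the log2 scale. Krt8, a keratin of simple and glandular epithelium, was called lower, and its 0.532, 1.68, 2.49 and 1.76 CPM in LiTra 1 to 4 overlapped the 51.9, 35, 17.9 and 1.61 CPM in Co 1 to 4 through Co 4, the library with little gland RNA, and the call was lost without Co 1 or any 1 LiTra library.

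Genes of the cornified envelope fell in part. Of 20 tested 8 fell and none rose, with a median of −1.01. Lor, which encodes the main envelope protein loricrin, had 569.7, 439, 429 and 388 CPM in LiTra 1 to 4, against 2151, 1611, 2606 and 3023 CPM in Co 1 to 4 (−2.36 ± 0.44, edgeR adjusted p = 0.0026). Flg, the filament-aggregating protein filaggrin, had 28.8, 81.9, 43.7 and 17 CPM in LiTra 1 to 4, against 277, 282, 336 and 437 CPM in Co 1 to 4 (−2.96 ± 0.77). Tgm3, a transglutaminase that cross-links the envelope, changed by −1.73 ± 0.29. In these genes no LiTra library reached a Co library. The count of 8 fell to 3 without Co 4 or LiTra 4 and to 4 without Co 1, Co 3, LiTra 1 or LiTra 3. Of 22 genes of barrier lipids and cornification enzymes 7 fell and none rose, with a median of −0.77. Cyp4f39, which hydroxylates very long fatty acids for skin ceramides, changed by −1.35 ± 0.27, and Pnpla1, which makes acylceramides, by −1.39 ± 0.34. Sptssb, a subunit of the first enzyme of sphingolipid synthesis, had 20, 38.3, 35.8 and 15.3 CPM in LiTra 1 to 4, against 102, 97, 132 and 136 CPM in Co 1 to 4, without overlap. DESeq2 called 12 of this list lower and limma-voom 13, while 3 were called without LiTra 2 or LiTra 4 and 4 without Co 1, Co 3, Co 4 or LiTra 3.

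Desmosomes, the junctions that hold keratinocytes together, showed 9 of 17 tested genes lower and 1 higher, with a median of −0.61. Evpl, encoding envoplakin, had 173, 131, 163 and 141 CPM in LiTra 1 to 4, against 380.4, 356, 431 and 536 CPM in Co 1 to 4 (−1.48 ± 0.24, edgeR adjusted p = 0.00088). Ppl, its partner periplakin, changed by −1.32 ± 0.27, the plaque proteins Pkp1, Jup and Dsp by −0.90 ± 0.16, −1.13 ± 0.26 and −0.61 ± 0.14, and the upper-layer cadherin Dsg1a by −1.18 ± 0.31, not called without LiTra 4. The member that rose was Dsg3, the cadherin of the lower layers, with 1693, 1244, 1183 and 1458 CPM in LiTra 1 to 4, against 654, 800.1, 739 and 888 CPM in Co 1 to 4 (0.86 ± 0.16). All 4 LiTra libraries lay above all 4 Co libraries for Dsg3 and below them for Evpl. Of 15 tight and adherens junction genes 5 fell and none rose, 3 without Co 3 or LiTra 4. Among the 5 were Cldn10, described below with genes low in Co 4, and Cdh1 at −0.36, whose call was lost in 6 of 8 single omissions. The list's sums overlapped, at 808 to 1118 CPM in LiTra and 1044 to 1142 CPM in Co. Cldn23 and Marveld2, both of tight junctions, changed by −1.98 ± 0.42 and −0.68 ± 0.15, while Cldn1 differed by 0.25 ± 0.21 with overlapping groups.
Odam, a protein of the junctional epithelium that seals gum to tooth, fell by 1.19 ± 0.27 on the log2 scale, with LiTra 1 and LiTra 3 just above the lowest Co library.

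**Figure D3:**
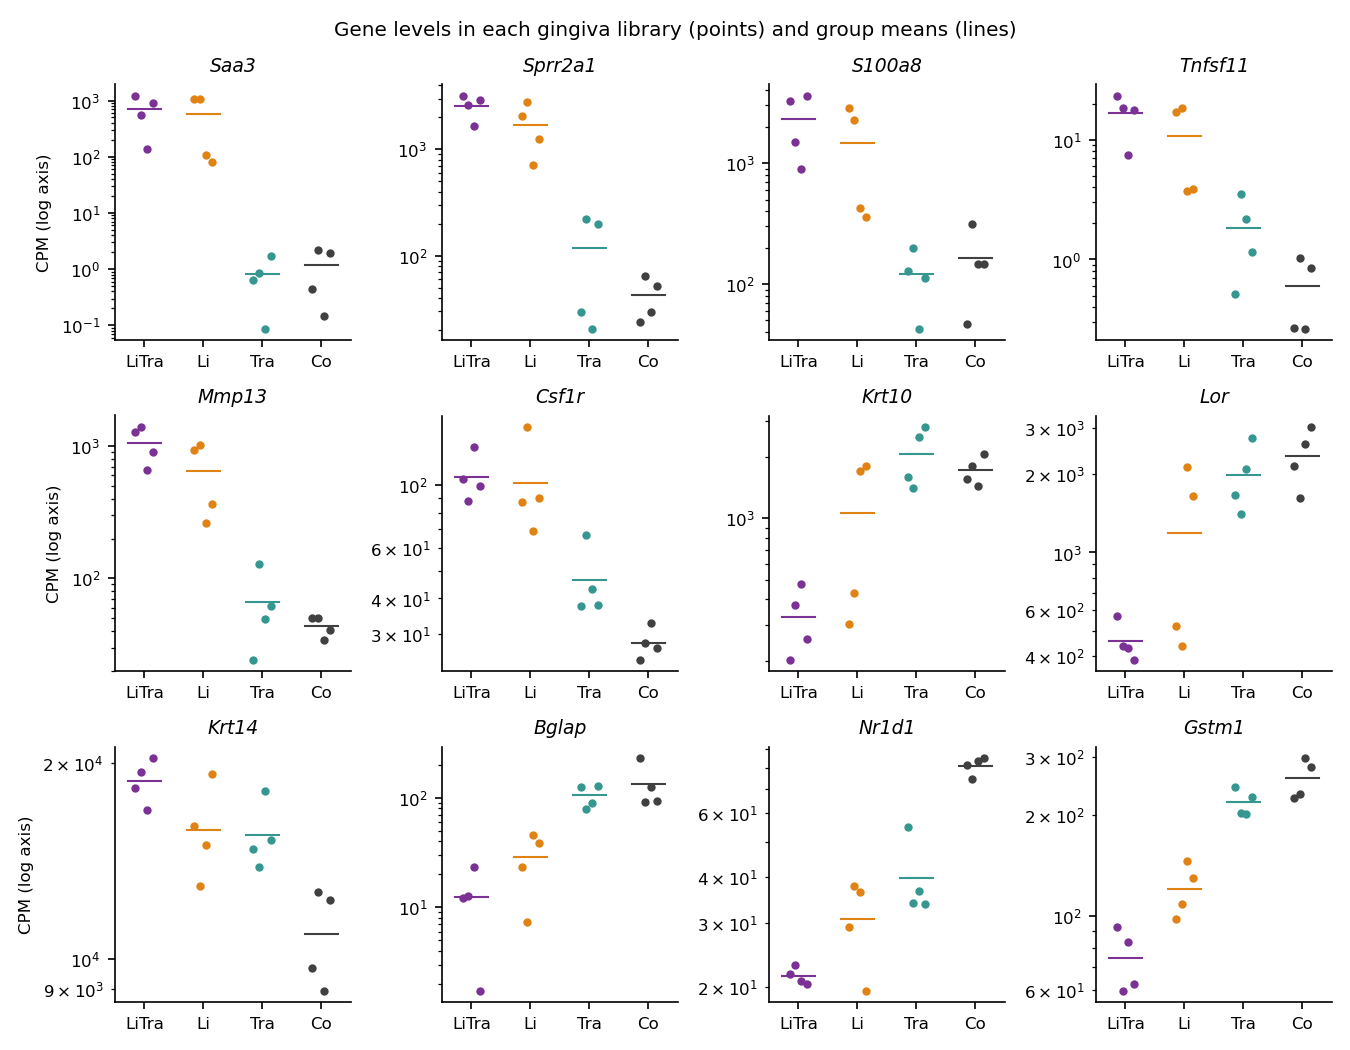
CPM (log axis) of 12 genes in each gingiva library, with points for libraries, lines for group means and groups LiTra, Li, Tra and Co from left to right. In LiTra against Co the points of each of these genes form separate groups, higher for Saa3, Sprr2a1, S100a8, Tnfsf11, Mmp13, Csf1r and Krt14 and lower for Krt10, Lor, Bglap, Nr1d1 and Gstm1.

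Acute phase genes rose: 8 of 12 tested, with a median of 3.31 and none lower. Besides Saa3, Saa2 had 4.26, 0.529, 0.568 and 4.33 CPM in LiTra 1 to 4 and no count in any Co library, at least 129.6-fold higher against a floor of 3 counts over the Co group, and Saa1, whose reads may be shared with Saa2, had 13.1, 4.03, 0.947 and 7.56 CPM in LiTra 1 to 4, against 0, 0, 0 and 0.37 CPM in Co 1 to 4. Steap4, a metalloreductase induced by cytokines, had 156, 86.4, 74.8 and 168 CPM in LiTra 1 to 4, against 15.9, 23.4, 12.4 and 15.6 CPM in Co 1 to 4 (2.85 ± 0.51). The haptoglobin gene Hp changed by 2.75 ± 0.78. None of these groups overlapped, and LiTra 1 and LiTra 4 held the highest values of each. The count of 8 fell to 4, and the call of Hp was lost, without Co 1, Co 3, Co 4, LiTra 1 or LiTra 4, and limma-voom did not call Saa1.

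In the interleukin 6 family, cytokines that signal through the receptor chain Il6st and the factor Stat3, 8 of 13 tested genes rose and none fell (median 0.82). Il6 itself had 20.6, 13.2, 0.971 and 21.1 CPM in LiTra 1 to 4, against 0.0971, 0.0958, 0 and 0.0794 CPM in Co 1 to 4, where most Co values are a few counts, and LiTra 3 was far below the other LiTra libraries though above each Co library (7.62 ± 1.69, edgeR adjusted p = 0.0067). Limma-voom did not call it. The ligands Osm, Lif and Il11 changed by 3.37 ± 0.92, 1.61 ± 0.40 and 2.28 ± 0.66. Osmr, the receptor for oncostatin M on stromal and epithelial cells, had 124, 95.9, 63.2 and 124 CPM in LiTra 1 to 4, against 24.7, 27.6, 28 and 29.6 CPM in Co 1 to 4 (1.89 ± 0.22, edgeR adjusted p = 0.00021). Socs3, the feedback inhibitor of this pathway, had 162, 86.3, 64.3 and 163 CPM in LiTra 1 to 4, against 15.9, 33.9, 21.9 and 23.6 CPM in Co 1 to 4 (2.32 ± 0.42). Il6st and Stat3 rose less, by 0.42 ± 0.12 and 0.57 ± 0.19. No LiTra library overlapped Co for Osmr or Socs3. The count fell to 4 without Co 1 or Co 4 and to 5 without Co 3. Each of these 3 omissions ended the call of Osm and of Il6st, Il11 was lost without Co 1, Co 2 or Co 4, Il6st also without LiTra 4, and Stat3 was called in 2 of 8 single omissions, those of LiTra 2 and LiTra 3.

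Of 17 interleukin 1 family genes 8 rose and 2 fell. Il1rl1, the receptor for interleukin 33, had 112, 129, 59 and 114 CPM in LiTra 1 to 4, against 4.27, 6.78, 5.82 and 5.08 CPM in Co 1 to 4 (4.23 ± 0.52, edgeR adjusted p = 0.00028), and its ligand Il33 had 179, 145, 126 and 169.8 CPM in LiTra 1 to 4, against 68.3, 42.7, 65.1 and 66.5 CPM in Co 1 to 4 (1.35 ± 0.18). Neither gene's groups overlapped. The receptor Il1r1 changed by 1.40 ± 0.23 and the inflammasome sensor Nlrp3 by 2.40 ± 0.77. Il1b, the main secreted cytokine of the family, had 510.1, 196, 137 and 401 CPM in LiTra 1 to 4, against 18.2, 94.7, 33.9 and 32.5 CPM in Co 1 to 4 (2.79 ± 0.91, edgeR adjusted p = 0.043). Its groups did not overlap, but Co 2 was well above the other Co libraries, and only the omission of Co 2 or LiTra 3 among the 8 single omissions kept the call. Casp1, the protease that activates interleukin 1 beta, fell, with 91.4, 85.4, 87 and 91.9 CPM in LiTra 1 to 4, against 128, 128, 129 and 142 CPM in Co 1 to 4 (−0.57 ± 0.12), again without overlap. The count of 8 fell to 5, and Nlrp3 was not called, without Co 1, Co 3, Co 4, LiTra 1 or LiTra 4.

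The interleukin 17 and 22 axis, T cell and innate cytokines that act on epithelium, had 7 of 20 genes higher and 3 lower. Il17a had 12.1, 4.07, 0.947 and 39.2 CPM in LiTra 1 to 4, against 0, 1.75, 0.144 and 1.03 CPM in Co 1 to 4 (4.26 ± 1.34, edgeR adjusted p = 0.035), and LiTra 3 lay below Co 2 and Co 4. This call was lost without Co 1, Co 3, Co 4, LiTra 1 or LiTra 4. Il17f had 7.68, 2.0, 0 and 27 CPM in LiTra 1 to 4 and no count in any Co library, so that LiTra 3 was at 0 like Co. Il19, an interleukin 20 family cytokine made by keratinocytes and macrophages, had 8.36, 10.6, 0.923 and 10.2 CPM in LiTra 1 to 4 and no count in the 4 Co libraries, at least 409-fold higher over the same floor (edgeR adjusted p = 0.0027). Il24, of the same family, had 40.1, 11.8, 6.11 and 18.9 CPM in LiTra 1 to 4, against 0.0971, 0.192, 0 and 1.27 CPM in Co 1 to 4, without overlap. The receptor chains of this family moved apart: Il20ra had 6.44, 5.31, 1.87 and 6.49 CPM in LiTra 1 to 4, against 0.437, 0.264, 0.144 and 0.423 CPM in Co 1 to 4 (3.98 ± 0.60), while Il20rb had 22, 23.8, 29.6 and 18.8 CPM in LiTra 1 to 4, against 42.9, 47.6, 45.8 and 55.3 CPM in Co 1 to 4 (−1.02 ± 0.14). The count of higher genes fell to 3 without Co 1 and to 4 without LiTra 1 or LiTra 4, and that of lower genes to 1 without Co 1, LiTra 2 or LiTra 3. Il24 was not called without Co 1, and limma-voom called none of Il17a, Il17f, Il19 and Il24.

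Of 8 tested type 2 cytokine genes 3 rose, among them a pair of receptor chains. Il4ra, the shared chain for interleukins 4 and 13, had 231, 162, 144 and 220.5 CPM in LiTra 1 to 4, against 25.6, 45.9, 38.6 and 38.3 CPM in Co 1 to 4 (2.35 ± 0.33, edgeR adjusted p = 0.00055), and its partner Il13ra1 changed by 1.27 ± 0.16. The third was Areg, a growth factor, whose call was lost in 5 of 8 single omissions, those of Co 1, Co 2, Co 4, LiTra 1 and LiTra 4. The cytokine genes Il4 and Il5 were not called.

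In the TNF superfamily 8 of 18 genes rose and none fell (median 1.14), 5 without LiTra 4. Tnf itself had 7.58, 4.69, 9.35 and 12.1 CPM in LiTra 1 to 4, against 2.7, 4.31, 8.77 and 6.35 CPM in Co 1 to 4, with overlapping groups (0.61 ± 0.43, edgeR adjusted p = 0.35). The receptor Tnfrsf1b changed by 2.11 ± 0.44, and the NF-kB feedback genes Nfkbia, Tnfaip3 and Birc3 by 1.18 ± 0.26, 1.10 ± 0.33 and 1.45 ± 0.27, with Tnfaip3 lost without Co 1, LiTra 1 or LiTra 4. Of 20 interferon response genes 3 rose, Irf1, Oas2 and Gbp5, and 1 did so without Co 1, Co 2, Co 3 or LiTra 3, each of which ended the calls of Oas2 and Gbp5. Gbp5 was also lost without LiTra 1 or LiTra 4. Of 17 prostaglandin and leukotriene genes 4 rose and 1 fell. Ptgs2, the inducible cyclooxygenase, had 149, 59.9, 18.6 and 113 CPM in LiTra 1 to 4, against 3.25, 10.3, 5.3 and 6.88 CPM in Co 1 to 4 (3.72 ± 0.81), and Ptges, which makes prostaglandin E, changed by 1.05 ± 0.21 and Alox5ap, which supplies 5-lipoxygenase, by 1.89 ± 0.37. The receptor gene Ptger2 changed by 1.85 ± 0.61 with overlapping groups, not called in 6 of 8 single omissions, and Ptgs1, the constitutive cyclooxygenase, by −0.38 ± 0.12, called without Co 3 and in no other single omission. LiTra 3 was the lowest LiTra library for Ptgs2 and still above each Co library.

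Genes of neutrophils, the first leukocytes at an infected site, rose in 10 of 20 tested, with a median of 2.11 and none lower. Their summed level was 8762, 3598, 2469 and 9453 CPM in LiTra 1 to 4, against 204, 984, 543 and 521 CPM in Co 1 to 4, without overlap. S100a8 and S100a9, which form calprotectin, make up much of that sum: S100a8 had 3279.9, 1483, 896 and 3582 CPM in LiTra 1 to 4, against 46.5, 314, 146 and 146 CPM in Co 1 to 4 (3.82 ± 0.83, edgeR adjusted p = 0.0063), and S100a9 changed by 3.66 ± 0.86. Keratinocytes make both proteins too. Clec4d, a myeloid lectin receptor, had 61.3, 35, 37.2 and 54.7 CPM in LiTra 1 to 4, against 2.43, 7.76, 2.56 and 2.01 CPM in Co 1 to 4 (3.67 ± 0.80), and the chemokine receptor Cxcr2 changed by 2.00 ± 0.64. Ly6g, the surface marker of mouse neutrophils, stayed near the floor, with 1.09, 0.391, 0.166 and 0.321 CPM in LiTra 1 to 4, against 0, 0.311, 0.767 and 0 CPM in Co 1 to 4. The count of 10 fell to 6 without Co 1 or Co 3 and to 5 without Co 4, and Cxcr2 was lost in each of these and without LiTra 1 or LiTra 4. Genes of marrow neutrophil precursors did not follow: 1 of 12 rose, Lcn2, a call that held in 1 of 8 single omissions, that of LiTra 3, and 1 fell, Olfm4, for which Co 4 was at 0 while the other Co libraries had 50.4 to 60.9 CPM. Olfm4 was not called without LiTra 2, LiTra 3 or LiTra 4.

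Monocyte and macrophage genes rose in 16 of 20 tested (median 1.92), and their sum was 2723, 2663, 3502 and 2437 CPM in LiTra 1 to 4, against 947, 826, 1256 and 1096 CPM in Co 1 to 4. Csf1r, the receptor for the growth factor of the macrophage line, had 105, 88.2, 136 and 99.5 CPM in LiTra 1 to 4, against 24.4, 27.8, 32.7 and 26.8 CPM in Co 1 to 4 (1.94 ± 0.25, edgeR adjusted p = 0.00029). Cd68, a lysosomal macrophage protein, changed by 2.30 ± 0.35 and Msr1, a scavenger receptor, by 3.40 ± 0.53. Here LiTra 3 was not low: it held the highest Csf1r and Cd68. Ccr2, of blood-derived monocytes, changed by 1.89 ± 0.35, and Cd163, of resident macrophages, differed by 0.45 ± 0.45 with overlapping groups. Without any 1 library between 12 and 15 members were called.

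The list named for neutrophil-attracting chemokines had 5 of 6 tested genes higher, Cxcl2, Cxcl3, Cxcl5, Pf4 and Ppbp. Cxcl5 had 862, 298, 575 and 686 CPM in LiTra 1 to 4, against 47.6, 212, 138 and 160.4 CPM in Co 1 to 4, and Cxcl2 had 135, 54.6, 33.5 and 134 CPM in LiTra 1 to 4, against 6.95, 8.53, 13.4 and 14.4 CPM in Co 1 to 4, both without overlap. Cxcl1, the remaining member, overlapped (edgeR adjusted p = 0.057). Cxcl2 was not called without Co 1, Co 2, LiTra 1 or LiTra 4. Of 26 other chemokines 9 rose and 2 fell. Ccl9 had 89.8, 89.7, 104 and 75.4 CPM in LiTra 1 to 4, against 5.76, 7.26, 7.31 and 5.95 CPM in Co 1 to 4 (3.77 ± 0.61, edgeR adjusted p = 0.0013), and the monocyte attractants Ccl2 and Ccl7 changed by 3.86 ± 0.75 and 3.48 ± 0.68. Cxcl9, Cxcl10 and Ccl5, which attract T cells, were not called. The count of 9 fell to 5 without Co 1, Co 3, LiTra 1 or LiTra 4. Of 8 colony-stimulating factors and receptors 3 rose, the receptor genes Csf1r, described above, Csf2rb at 2.16 ± 0.43 and Csf2ra at 1.47 ± 0.30, while the receptor gene Csf3r differed by 1.90 ± 0.89 (edgeR adjusted p = 0.15).

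Lymphocyte lists had medians of 0.56 for T and NK cells and −1.26 for B cells, but few members of either were called. Of 21 T and NK cell genes 1 rose, Trbc2, and its call was lost without Co 1, Co 3, Co 4 or LiTra 4. The summed level of this list was nevertheless 62.4, 62, 70.2 and 103 CPM in LiTra 1 to 4, against 30.8, 54, 38.4 and 45.2 CPM in Co 1 to 4, without overlap. Of 11 B cell genes 3 fell, 1 without Co 3, Co 4, LiTra 2, LiTra 3 or LiTra 4. Their sum was 20.7, 21.7, 24.9 and 25.2 CPM in LiTra 1 to 4. In Co 1 to 4 it was 38.9, 37.3, 46.1 and 49.8 CPM. The sums did not overlap, but Blnk held a large part of them, so their separation rests largely on that gene. Blnk, a B cell adaptor that other cells also express, had 11.6, 7.41, 11.5 and 8.69 CPM in LiTra 1 to 4, against 26, 19.6, 28.7 and 31.6 CPM in Co 1 to 4 (−1.44 ± 0.27). The defining B cell gene Ms4a1 was listed at 0 in the 4 LiTra libraries and lay between 0 and 0.479 CPM in Co. Of 10 MHC class II genes 2 rose, Ciita, the master regulator of the class, by 1.34 ± 0.35 and H2-DMb1 by 0.78 ± 0.25, and the H2-DMb1 call was lost in 6 single omissions.

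**Figure D4:**
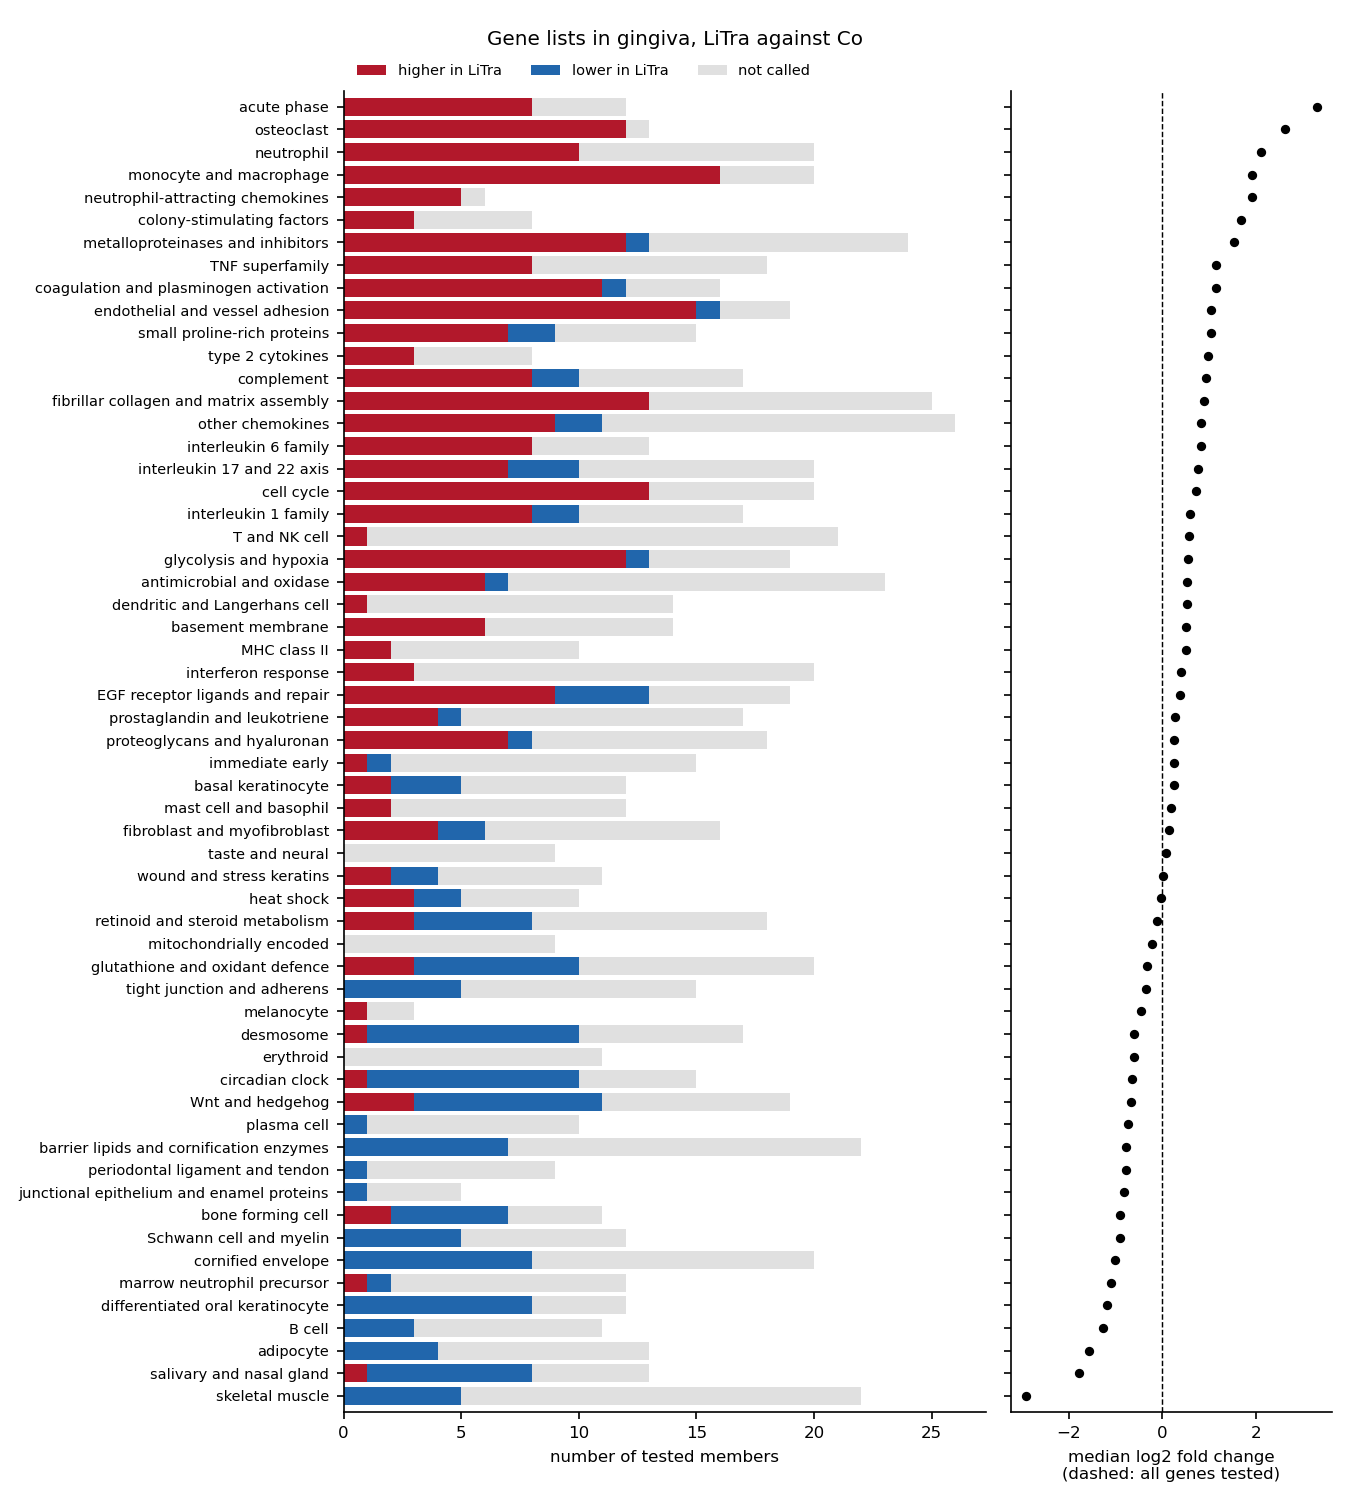
For each of 58 gene lists, the left panel counts tested members higher in LiTra (red), lower in LiTra (blue) and not called (grey), and the right panel gives their median log2 fold change with the value of all genes, −0.01, as a dashed line. Acute phase, osteoclast and neutrophil lists have the highest medians, and skeletal muscle and gland lists the lowest.

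Osteoclast genes rose in 12 of 13 tested, with a median of 2.61, and 11 or 12 were called whichever library was left out. The summed level was 1025, 1539.9, 1492 and 983 CPM in LiTra 1 to 4, against 209, 264, 289.8 and 239 CPM in Co 1 to 4. Tnfsf11 (RANKL) had 23.1, 18.4, 7.41 and 17.7 CPM in LiTra 1 to 4, against 0.267, 1.03, 0.264 and 0.847 CPM in Co 1 to 4 (4.79 ± 0.77, edgeR adjusted p = 0.0011), with LiTra 3 lowest and no overlap. Its receptor gene Tnfrsf11a had 12.8, 14.6, 16.6 and 11 CPM in LiTra 1 to 4, against 4.47, 6.44, 4.82 and 2.8 CPM in Co 1 to 4 (1.57 ± 0.26). The decoy Tnfrsf11b had 38.5, 23.7, 29.9 and 31.8 CPM in LiTra 1 to 4, against 11.3, 21.5, 15.9 and 20.8 CPM in Co 1 to 4, and although each LiTra value lay above each Co value, it was not called (0.84 ± 0.33, edgeR adjusted p = 0.079). Ctsk, the collagen-cutting protease of osteoclasts, had 477, 739, 723 and 418 CPM in LiTra 1 to 4, against 85.7, 101, 118 and 82.4 CPM in Co 1 to 4 (2.61 ± 0.41), and Acp5, their acid phosphatase, 195, 307, 272 and 198 CPM in LiTra 1 to 4, against 42.4, 33.5, 43.7 and 51.4 CPM in Co 1 to 4. Both were highest in LiTra 2 and LiTra 3. Ocstamp and Dcstamp, which are needed for cell fusion, changed by 4.12 ± 0.59 and 4.25 ± 0.82, Atp6v0d2, a proton pump subunit, by 4.42 ± 0.81, and Slc9b2, a sodium-proton exchanger of osteoclasts, by 3.24 ± 0.39. Itgb3, the integrin chain by which they attach, had 54, 64, 58.3 and 54.2 CPM in LiTra 1 to 4, against 9.18, 14.9, 17.1 and 14.7 CPM in Co 1 to 4. Bone-cell transcripts such as Ibsp were in gingiva of both groups, and the part of dissected bone in these values was not tested.

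Bone-forming genes split. Of 11 tested 2 rose and 5 fell. Bglap, which encodes osteocalcin, had 12.3, 12.7, 23.2 and 1.74 CPM in LiTra 1 to 4, against 229, 90.9, 124 and 93.3 CPM in Co 1 to 4 (−3.42 ± 0.68, edgeR adjusted p = 0.0039), and Bglap2, a near copy that may share its reads, changed by −3.24 ± 0.66. Sp7, the osteoblast transcription factor, changed by −1.70 ± 0.45, and Phex and Alpl, both of mineralization, by −2.32 ± 0.62 and −1.13 ± 0.37. Ibsp, bone sialoprotein, rose by 1.08 ± 0.31, and Spp1, osteopontin, which macrophages and osteoclasts also make, had 530.1, 891, 797 and 477 CPM in LiTra 1 to 4, against 43.1, 14.6, 47.2 and 38.2 CPM in Co 1 to 4 (4.23 ± 0.84). Bglap and Spp1 did not overlap between the groups. Runx2 differed by −0.12 ± 0.20, with overlap. The count of fallen members was 3 without Co 3, where Sp7 and Alpl were lost, and that of risen members was 1 without Co 1, Co 2, Co 4, LiTra 2 or LiTra 3, where Ibsp was lost. Alpl was also lost without Co 1, LiTra 1, LiTra 2 or LiTra 4.

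Metalloproteinases, which cut matrix, and their inhibitors showed 12 of 24 genes higher and 1 lower (median 1.53). Mmp3, stromelysin, had 408, 180.5, 97.9 and 361 CPM in LiTra 1 to 4, against 3.28, 3.35, 3.55 and 3.47 CPM in Co 1 to 4 (6.26 ± 1.08, edgeR adjusted p = 0.002). Mmp13, a collagenase, had 1279.6, 1389.8, 661 and 907 CPM in LiTra 1 to 4, against 50.2, 50.4, 34.2 and 40.5 CPM in Co 1 to 4 (4.59 ± 0.56). For both the Co libraries were close together and each LiTra library was far above them. Mmp19 and Adamts4 changed by 2.89 ± 0.36 and 3.41 ± 0.44. Timp1, an inhibitor of metalloproteinases, had 270.4, 168, 108 and 199.5 CPM in LiTra 1 to 4, against 8.52, 6.97, 12.6 and 4.58 CPM in Co 1 to 4 (4.51 ± 0.60), while Timp3, an inhibitor bound to the matrix, had 129.8, 188, 239 and 128 CPM in LiTra 1 to 4, against 305, 378, 487 and 258 CPM in Co 1 to 4 (−1.06 ± 0.20). The gelatinase Mmp2 was not called, at 0.18 ± 0.18.

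Collagens and genes of matrix assembly numbered 25, of which 13 rose and none fell (median 0.89). Those that rose were mainly modifying enzymes and minor collagens. Lox, which cross-links collagen, had 159.8, 135, 157 and 154 CPM in LiTra 1 to 4, against 32.5, 44.2, 37.2 and 18.5 CPM in Co 1 to 4 (2.19 ± 0.35), Plod2, which hydroxylates collagen lysines, had 65.1, 61.1, 67 and 57.3 CPM in LiTra 1 to 4, against 19.1, 16, 25.2 and 13.4 CPM in Co 1 to 4 (1.76 ± 0.22, edgeR adjusted p = 0.00025), and the matrix proteins Tnc, Fbn1 and Col12a1 changed by 1.29 ± 0.19, 2.11 ± 0.35 and 1.57 ± 0.28. The main fibre collagens were not called. Col1a1 had 439, 553, 1036 and 593 CPM in LiTra 1 to 4, against 979, 1249.6, 1816 and 760.2 CPM in Co 1 to 4, with overlap (−0.87 ± 0.46, edgeR adjusted p = 0.19), and Col3a1 had 2521, 2491, 4132 and 2835 CPM in LiTra 1 to 4, against 1260.2, 2206, 2256 and 1035 CPM in Co 1 to 4, without overlap (0.83 ± 0.30, edgeR adjusted p = 0.058). Among 18 proteoglycan and hyaluronan genes 7 rose and 1 fell. Vcan, the large proteoglycan versican, had 114, 146, 130.3 and 114 CPM in LiTra 1 to 4, against 22.9, 42, 19.3 and 31.8 CPM in Co 1 to 4 (2.12 ± 0.22, edgeR adjusted p = 0.00012), and Cd44, the hyaluronan receptor, changed by 0.66 ± 0.09. Of 16 fibroblast and myofibroblast genes 4 rose and 2 fell (median 0.13). Pdgfra, Thy1 and Cd34 changed by 1.51 ± 0.21, 1.41 ± 0.23 and 0.64 ± 0.13, and the smooth muscle actin Acta2 by 1.05 ± 0.34, not called without Co 2, Co 3, Co 4, LiTra 3 or LiTra 4. The smooth muscle genes Cnn1, not called by limma-voom, and Myh11 fell by 4.07 ± 1.01 and 2.49 ± 0.62 on the log2 scale.

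Vessel genes rose in 15 of 19 tested, with a median of 1.05. Apln, a peptide of sprouting vessels, had 9.58, 14.9, 10.6 and 12.9 CPM in LiTra 1 to 4, against 1.97, 1.22, 0.959 and 1.46 CPM in Co 1 to 4 (3.10 ± 0.35, edgeR adjusted p = 0.00016). Pecam1, a junction protein of all vessels, had 128, 132, 143 and 165 CPM in LiTra 1 to 4, against 50.3, 60.2, 58.2 and 48 CPM in Co 1 to 4 (1.39 ± 0.17), and Ackr1, a chemokine-binding receptor of venules, changed by 1.88 ± 0.23. Each LiTra library lay above each Co library for all of these. The adhesion molecules Sele, Selp, Vcam1 and Icam1, by which leukocytes leave the blood, changed by 2.19 ± 0.42, 1.85 ± 0.42, 1.55 ± 0.25 and 1.36 ± 0.30. Vwf, stored in endothelial granules, was the member that fell, with 6.82, 20.8, 23.9 and 17.5 CPM in LiTra 1 to 4, against 44, 40.7, 42.3 and 45.4 CPM in Co 1 to 4, a call that held in 1 of 8 single omissions, that of LiTra 3. Of 14 basement membrane genes 6 rose, among them Col4a1 and Lamb1 at 1.72 ± 0.33 and 1.20 ± 0.16.

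Coagulation and plasminogen activation genes rose in 11 of 16 tested and fell in 1, F3, which encodes tissue factor and was called in 2 of 8 single omissions, those of Co 2 and LiTra 3. F10, coagulation factor X, had 8.01, 5.77, 8.38 and 8.46 CPM in LiTra 1 to 4, against 0.0971, 0, 0.168 and 0.0794 CPM in Co 1 to 4 (6.43 ± 1.39, edgeR adjusted p = 0.0055), where the Co values are a few counts. The plasminogen activator Plau changed by 1.23 ± 0.18, its receptor Plaur by 2.84 ± 0.53 and the protease inhibitor Serpine2 by 1.66 ± 0.25. Of 17 complement genes 8 rose and 2 fell, 5 rose without Co 1. Cfp, properdin, had 45.6, 38.1, 39.1 and 47.1 CPM in LiTra 1 to 4, against 5.12, 7.79, 7.81 and 8.02 CPM in Co 1 to 4 (2.56 ± 0.36, edgeR adjusted p = 0.00046), and the receptor C3ar1 changed by 2.69 ± 0.41. C3 itself had 95.4, 83, 166 and 153 CPM in LiTra 1 to 4, against 42.2, 41.8, 47.1 and 40.1 CPM in Co 1 to 4, above Co in each library but not called (edgeR adjusted p = 0.057).

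Proliferation genes rose in 13 of 20 tested and fell in none (median 0.71), with 10 to 15 called in single omissions. Birc5, survivin, had 38.5, 37.9, 38.4 and 42.3 CPM in LiTra 1 to 4, against 14.4, 18.2, 16.8 and 19.3 CPM in Co 1 to 4 (1.19 ± 0.16, edgeR adjusted p = 0.00036), and Top2a and Mki67 changed by 1.01 ± 0.17 and 0.73 ± 0.18. The LiTra libraries were close to each other and each above Co. Glycolysis and hypoxia genes rose in 12 of 19 and fell in 1, Hk1. Slc16a3, a lactate exporter, changed by 2.23 ± 0.38, Car9 by 1.82 ± 0.30, the oxygen-regulated factor Hif1a by 1.18 ± 0.20 and the enzymes Eno1 and Pgk1 by 0.76 ± 0.12 and 0.54 ± 0.09. Of 19 growth factor and repair genes 9 rose and 4 fell, 5 rose without Co 1 and 1 fell without LiTra 4. Inhba, a subunit of activin A, had 153, 124, 57 and 119 CPM in LiTra 1 to 4, against 7.53, 10.2, 15.1 and 14 CPM in Co 1 to 4 (3.28 ± 0.50), and Hgf and Fgf7, which stromal cells release to epithelium, changed by 2.64 ± 0.41 and 1.54 ± 0.27. The EGF receptor ligands Ereg and Btc fell by 1.26 ± 0.39 and 1.34 ± 0.37 on the log2 scale. Btc was not called without LiTra 4, and Ereg was called in 2 of 8 single omissions, those of Co 2 and LiTra 1.

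Clock-controlled genes were lower. Of 15 circadian genes 9 fell and 1 rose, Npas2, which was called in 2 of 8 single omissions, those of Co 2 and LiTra 4. Between 7 and 9 were called lower in single omissions. Nr1d1, which encodes the repressor REV-ERB alpha, had 21.7, 22.9, 20.7 and 20.3 CPM in LiTra 1 to 4, against 81.2, 74.5, 83.7 and 85 CPM in Co 1 to 4 (−1.92 ± 0.19, edgeR adjusted p = 6.3e-05). The libraries of each group were close together. Dbp and Tef, output factors of the clock, changed by −1.89 ± 0.39 and −0.92 ± 0.14, and Hlf, of the same family, by −1.04 ± 0.16. Arntl and Per1 were not called, at 0.38 ± 0.28 and 0.05 ± 0.17. Nr1d1 averaged 30.7 CPM in Li and 39.8 CPM in Tra. The time of day at sampling is not in the labels, and its part in these values was not tested.

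Wnt and hedgehog genes, which guide epithelial and skeletal renewal, had 3 of 19 higher and 8 lower (median −0.68). Gli1, a target and effector of hedgehog, had 1.77, 2.88, 2.68 and 1.65 CPM in LiTra 1 to 4, against 10.5, 10.4, 8.65 and 7.67 CPM in Co 1 to 4 (−2.05 ± 0.31, edgeR adjusted p = 0.00068). The ligands Wnt4, Wnt7b and Wnt10b changed by −1.02 ± 0.18, −1.63 ± 0.32 and −1.85 ± 0.39, and the target Axin2 by −0.87 ± 0.21. The secreted Wnt antagonist Sfrp1 had 114, 119, 87.3 and 113 CPM in LiTra 1 to 4, against 33.7, 39.8, 31.5 and 31.4 CPM in Co 1 to 4 (1.66 ± 0.26), and Sfrp4 changed by 3.29 ± 0.60. Groups did not overlap for Gli1, Sfrp1 or Sfrp4.

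In retinoid and steroid metabolism 5 of 18 genes fell and 3 rose. Aldh3a1, an aldehyde dehydrogenase of surface epithelia, had 164, 103, 119 and 84.8 CPM in LiTra 1 to 4, against 753, 515, 997 and 938 CPM in Co 1 to 4 (−2.76 ± 0.33, edgeR adjusted p = 0.00025). Adh7, which oxidises retinol, and Rarg, the main retinoic acid receptor of epidermis, changed by −1.32 ± 0.20 and −1.13 ± 0.19. Aldh1a3, which makes retinoic acid, rose by 1.83 ± 0.38. Of 20 glutathione and oxidant defence genes 7 fell and 3 rose. Gstm1, a glutathione transferase, had 92.7, 59.5, 83.6 and 62.5 CPM in LiTra 1 to 4, against 225, 232, 297 and 279.8 CPM in Co 1 to 4 (−1.79 ± 0.16, edgeR adjusted p = 4.7e-05), and Gsta2 changed by −1.55 ± 0.32. In Gstm1 and Aldh3a1 the groups lay far apart. The metallothionein Mt1 rose by 0.79 ± 0.16.

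The largest decreases among called genes whose groups did not overlap, with the same minimum level, were Cldn2, Ckmt2, Cldn10, Gpd1, Fabp3, Atp2a3, Cnn1, Col2a1, Syt7, Foxa1, Sh3bgr and Mypn, and for most of them 1 Co library stood near LiTra. Cldn2, a claudin of leaky secretory epithelia, had 0.203, 0.299, 0 and 0.825 CPM in LiTra 1 to 4, against 112, 48.8, 34.7 and 0.952 CPM in Co 1 to 4 (−7.19 ± 1.75, edgeR adjusted p = 0.012), and Cldn10, of the same kind, had 0, 0.483, 0.237 and 0.298 CPM in LiTra 1 to 4, against 40.6, 16.9, 13.8 and 0.635 CPM in Co 1 to 4. Co 4, which had little gland RNA, was the low Co library for these genes, as it was for Atp2a3, Cnn1, Syt7 and Foxa1. Ckmt2, the mitochondrial creatine kinase of muscle, had 2.03, 0, 0.758 and 0.55 CPM in LiTra 1 to 4, against 113, 3.11, 106 and 101 CPM in Co 1 to 4 (−6.62 ± 1.71, edgeR adjusted p = 0.015). Co 2, which had little muscle RNA, was the low Co library here and for Fabp3 and Mypn. Gpd1, glycerol-3-phosphate dehydrogenase, had 0.937, 0.253, 1.02 and 0.298 CPM in LiTra 1 to 4, against 22.3, 12.2, 11.9 and 11.1 CPM in Co 1 to 4 (−4.52 ± 0.74, edgeR adjusted p = 0.0013), and no Co library stood near LiTra. Limma-voom with quality weights did not call Cldn2, Cldn10, Ckmt2, Fabp3, Atp2a3, Cnn1, Syt7, Foxa1 or Mypn. Fabp3 was not called without LiTra 1, LiTra 2 or LiTra 4, and Foxa1 and Mypn each lost the call in 6 single omissions.

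Of 22 skeletal muscle genes 5 fell, with a median of −2.92, the lowest of the lists. Mb, myoglobin, had 15.5, 4.05, 9.9 and 7.17 CPM in LiTra 1 to 4, against 333, 12.6, 308 and 282 CPM in Co 1 to 4 (−4.67 ± 1.24, edgeR adjusted p = 0.017), with Co 2 inside the LiTra range and no call by limma-voom or without LiTra 4. Without Co 2 the list had 10 members called lower, without LiTra 4 none, without Co 1, LiTra 2 or LiTra 3 1, and without Co 3, Co 4 or LiTra 1 2. DESeq2 called 14 and limma-voom 1. Of 13 salivary and nasal gland genes 7 fell and 1 rose, Lpo, with 4 fallen without LiTra 1, which also ended the Lpo call, and 1 by limma-voom. Muc5b, a mucin of salivary glands, had 0, 2.3, 0.189 and 13.9 CPM in LiTra 1 to 4, against 5019, 3519.9, 2177 and 0.0794 CPM in Co 1 to 4, and Dcpp1, Dcpp2 and Dcpp3, near copies that may share reads, were at or near 0 in LiTra and in Co 4. Muc5b was not called without Co 1, LiTra 1, LiTra 2 or LiTra 3. The part of dissected muscle and gland in these values was not tested. Of 12 Schwann cell genes 5 fell, 3 without Co 2, Co 3, LiTra 1 or LiTra 2 or with library totals. Of 13 adipocyte genes 4 fell, 2 without Co 1, Co 3, LiTra 1, LiTra 2 or LiTra 4, and the adipocyte regulator Pparg changed by −1.10 ± 0.26.

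How much of this was also present with the ligature only was asked by LiTra against Li. Of 20143 genes 21 were called (0.104%), 5 higher in LiTra and 16 lower, with 3729 at an unadjusted p under 0.05. The 4 largest increases with enough counts were all under 2-fold. Npat, which activates histone genes before DNA synthesis, had 33.6, 29.9, 33.7 and 33.5 CPM in LiTra 1 to 4, against 24.9, 23.8, 23.2 and 24.5 CPM in Li 1 to 4 (0.44 ± 0.07, edgeR adjusted p = 0.0448). Smc6, of a complex that repairs DNA, had 100.1, 98.2, 97 and 95.2 CPM in LiTra 1 to 4, against 77.7, 72.9, 71 and 67.7 CPM in Li 1 to 4 (0.43 ± 0.07). For both the 4 values of each group were tight and did not overlap. Cep192, a centrosome protein, and Fnbp1l, which links membranes to actin, changed by 0.54 ± 0.09 and 0.42 ± 0.07. Among the decreases, Zfp750, a transcription factor of keratinocyte differentiation, had 28.5, 30.2, 36.2 and 27 CPM in LiTra 1 to 4, against 41.5, 68, 79.4 and 79.3 CPM in Li 1 to 4 (−1.14 ± 0.19), and Tpcn1, a cation channel of endosomes, had 13.8, 14.3, 21.7 and 15 CPM in LiTra 1 to 4, against 25, 48.3, 45.1 and 34.3 CPM in Li 1 to 4 (−1.24 ± 0.20). Rgma, a co-receptor for bone morphogenetic proteins, and Fjx1 changed by −1.33 ± 0.23 and −1.04 ± 0.18. Zfp750 averaged 65.7 CPM in Tra and 75.5 CPM in Co, above the LiTra values. Each of these 8 genes had the same adjusted p of 0.0448 and lost its call in 7 of 8 single omissions, Li 1 being the exception. The count of 21 was 921 without Li 1, 1 without Li 4 and 0 without any of the other 6 libraries, 1413 by DESeq2, 828 by limma-voom and 0 with library totals.

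The Li libraries differed among themselves in the genes that separated LiTra from Co. Saa3 had 1196, 554, 136 and 911 CPM in LiTra 1 to 4, against 1048, 1068, 109 and 81 CPM in Li 1 to 4 (0.28 ± 0.96, edgeR adjusted p = 0.92), and Krt10 had 202, 375, 474 and 257 CPM in LiTra 1 to 4, against 302, 428, 1720.3 and 1804 CPM in Li 1 to 4 (−1.70 ± 0.50, edgeR adjusted p = 0.1). Li 1 and Li 2 lay near or within the LiTra range in both, and Li 3 and Li 4 outside it for Saa3 and Krt10 alike. Tnfsf11 had 23.1, 18.4, 7.41 and 17.7 CPM in LiTra 1 to 4, against 17.2, 18.6, 3.71 and 3.89 CPM in Li 1 to 4 (0.62 ± 0.64, edgeR adjusted p = 0.68), again with Li 3 and Li 4 below LiTra. Csf1r had 105, 88.2, 136 and 99.5 CPM in LiTra 1 to 4, against 87, 159.6, 68.9 and 90.1 CPM in Li 1 to 4, without such a split. A p that misses the threshold here does not show that the groups were alike. Against Co, 1508 genes were called for Li (7.49%) and 2 for Tra (0.00993%), comparisons that share the Co libraries with LiTra against Co. The interaction, which asks whether the combined difference departs from the sum of the single ones on the log2 scale, had 0 called genes by edgeR (0.0%), with 2273 at an unadjusted p under 0.05, 0 by limma-voom and 183 by DESeq2, and 1 gene was called without Co 4.

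Bone of the same groups gave a second reading of the treatment. In a fit of all 32 libraries the LiTra against Co difference was itself different between gingiva and bone for 2796 of 22559 genes (12.4%), 1519 with the higher value in gingiva and 1277 with the lower one. In bone alone 4171 genes were called in that fit (18.5%). For the difference between the tissues only 16 genes were called with library totals in place of TMM, and 5088 by limma-voom. An added fit without 3 bone libraries, in which 10 genes held 51.1 to 62.9% of the counts, called 3438.

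Proliferation genes parted most often. The difference was higher in gingiva for 15 of 20 cell cycle genes, whose median was 0.71 in gingiva and −0.73 in bone. Neutrophil genes were higher in gingiva for 10 of 20, with medians of 2.11 in gingiva and −0.96 in bone. Macrophage genes were higher for 10 of 20, with medians of 1.92 in gingiva and 0.15 in bone. Other blood cell lists were low in bone too. Medians in gingiva and bone were −0.61 and −2.99 for erythroid genes, −1.261 and −3.145 for B cell genes and 0.56 and −1.67 for T and NK cell genes. The difference was called higher in gingiva for 4 of 11, 3 of 13 and 5 of 23 of them. The part of marrow in these values was not tested. Osteoclast genes had a median of 2.61 in gingiva and 1.41 in bone, and 5 of 13 differed, all higher in gingiva. Wnt and hedgehog genes had a median of −0.68 in gingiva and 0.03 in bone, with 4 of 19 lower in gingiva. No gene of the desmosome, cornified envelope or skeletal muscle lists was called for this difference.

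The largest differences with enough counts are given with their values in both tissues. F10 had 8.05, 5.81, 8.4 and 8.5 CPM in gingiva LiTra 1 to 4, against 0.0969, 0, 0.17 and 0.0794 CPM in gingiva Co 1 to 4, and 13.2, 16.1, 16.1 and 18.7 CPM in bone LiTra 1 to 4, against 20.7, 26.6, 15.7 and 21.1 CPM in bone Co 1 to 4. B3gnt5, a glycosyltransferase of glycolipids, had 5.89, 3.42, 2.16 and 4.01 CPM in gingiva LiTra 1 to 4, against 0.267, 0.407, 0.851 and 0 CPM in gingiva Co 1 to 4, and 4.25, 3.15, 4.57 and 5.39 CPM in bone LiTra 1 to 4, against 14.8, 16.2, 12.2 and 15.8 CPM in bone Co 1 to 4. Both were higher in gingiva LiTra than in gingiva Co without overlap, while in bone F10 overlapped and B3gnt5 was lower in each LiTra library. Orm1, an acute phase protein, and Chil4, a chitinase-like protein of inflamed epithelium, differed between the tissues by 5.17 ± 1.19 and 5.27 ± 1.31. In the other direction stood genes of secretory glands. Tff2, a mucus-protecting peptide, Bpifb2, Agr2, which folds mucins, and Lman1l differed by −13.39 ± 3.10, −12.10 ± 3.19, −9.27 ± 2.84 and −8.35 ± 1.69. In gingiva their Co values followed the gland list, and Tff2 had 0, 0.0694, 0 and 0.576 CPM in gingiva LiTra 1 to 4, against 2009, 1093, 676 and 0.106 CPM in gingiva Co 1 to 4, with Co 4 within the LiTra range. Without the 3 bone libraries, without bone LiTra 1 alone and with the replicate block Agr2, Bpifb2 and Tff2 were no longer called, and Agr2 lost its call in 9 of 16 single omissions. Limma-voom called neither Chil4 nor any of the 4 gland genes for this difference, and with library totals none of these 8 genes was called. Within gingiva alone B3gnt5 was not called in 6 of 8 single omissions, nor Orm1 or Chil4 in 5 of 8.

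**Figure D5:**
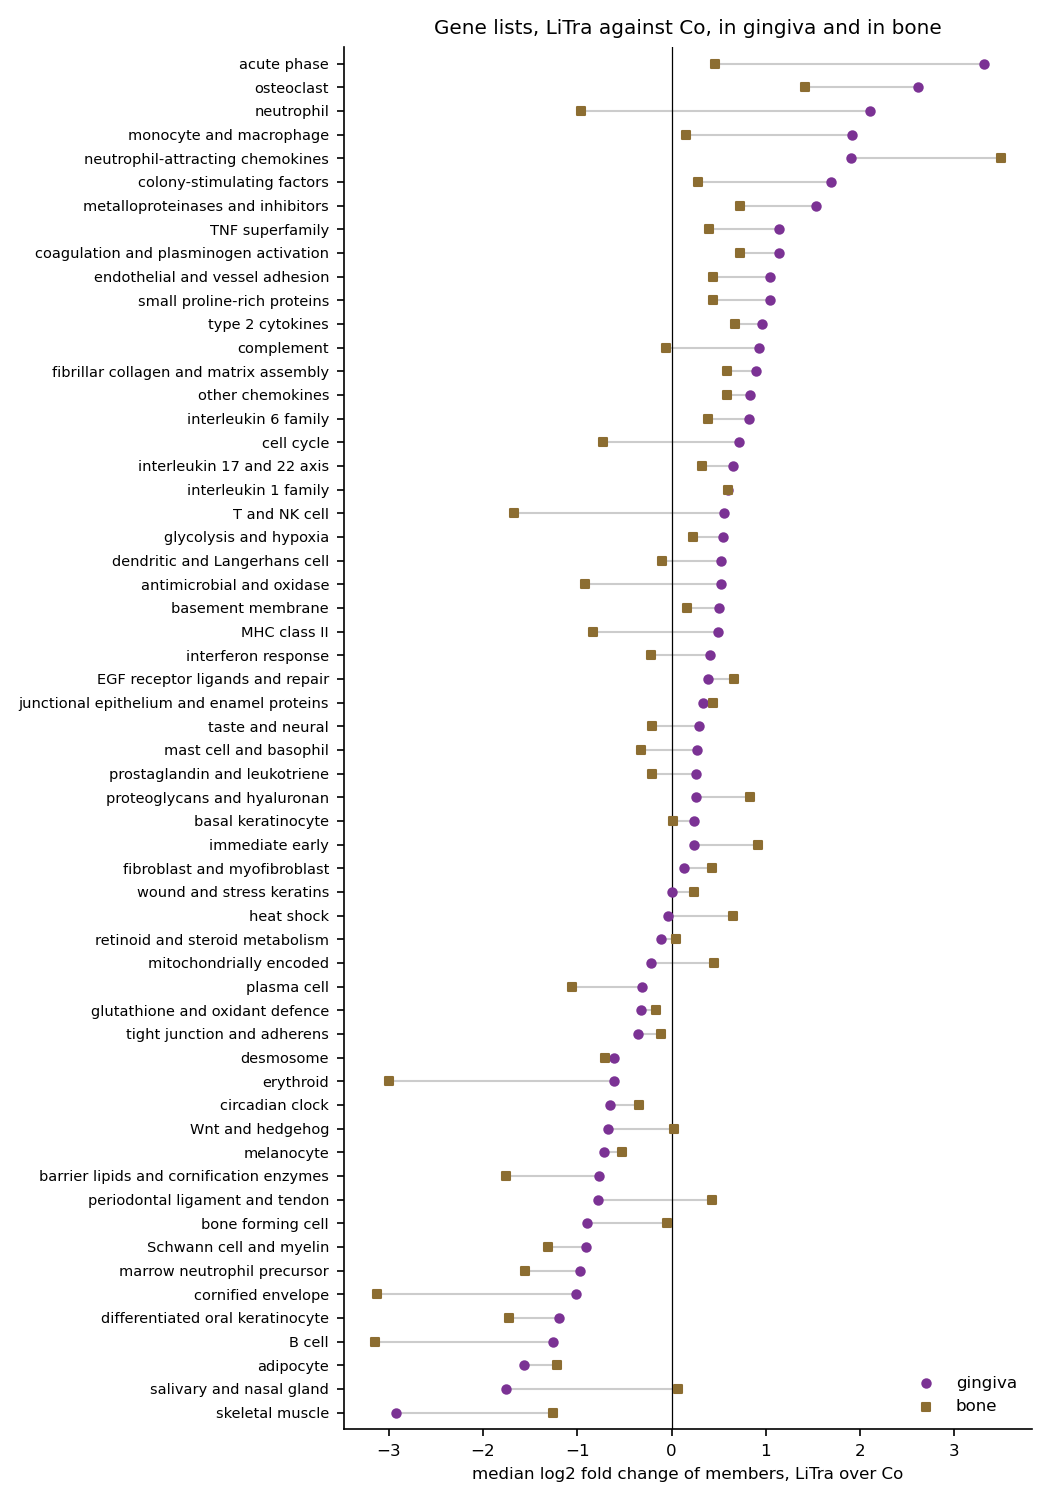
Median log2 fold change of LiTra over Co for the tested members of each gene list, with circles for gingiva and squares for bone joined by a line, lists ordered by the gingiva value. Cell cycle and neutrophil medians lie above 0 in gingiva and below 0 in bone, and osteoclast medians lie above 0 in both.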

How the data were processed

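Bulk RNA-seq of 16 gingiva and 16 bone libraries was deposited by the authors as estimated counts per gene, written as whole numbers and not normalized, for 55359 gene identifiers, of which 52083 matched a symbol. The submitters' processing notes name Trimmomatic 0.39, FastQC 0.11.9, HISAT2 2.2.1, StringTie 2.1.7, DESeq2 1.32.0 and build GRCm39, with no order or settings. Use of strand in counting is not given in the sources used here. Antisense or overlapping genes and near-identical copies may share reads.

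From these counts, genes passing filterByExpr (minimum count 10, minimum total 15) were scaled by TMM and fitted with edgeR 4.0.16 in R 4.3.3, by a robust quasi-likelihood test over all 16 gingiva libraries, which share 1 estimate of spread. The comparison with bone used 1 fit of all 32 libraries. P-values are two-sided, with Benjamini-Hochberg adjustment over all genes tested and a threshold of 0.05. DESeq2 1.42.0, limma-voom (limma 3.58.1, with quality weights), other scalings, filters and thresholds, a replicate block and the omission of each library were alternatives. The procedure was checked on simulated counts.

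The comparison, the 58 gene lists (888 genes) and the settings were chosen with earlier results of these data known. Genes were named by rule: the 12 largest increases and decreases among called genes without overlap that reached a mean log2 CPM of 1, the 3 tested genes of lowest p in each list, 16 fixed genes of epithelium, inflammation, bone and matrix, and 4 each way in the other comparisons. Other list members named in the text were chosen after their values were seen. Some list members are not reported here. Promoters are from RefSeq on GRCm38.p6. No analysis of sequence beyond those windows was made.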

Additional observations from a re-analysis of the deposited data

Results flagged for a closer look

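The LiTra against Co difference was compared between gingiva and bone by a test of the difference itself, and 2796 genes passed. The largest, as log2 differences of gingiva minus bone, were 6.82 for F10, 5.27 for Chil4, 5.17 for Orm1 and 5.09 for B3gnt5, and in the other direction −13.39 for Tff2, −12.10 for Bpifb2, −9.27 for Agr2 and −8.35 for Lman1l. The 4 gland genes among them were at or near 0 in gingiva LiTra and in gingiva Co 4.

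Within the groups of 4, each of 260 genes named in the text was searched for a library standing alone. The mark was a gap to the nearest neighbour above Dixon's 95% critical value, and 38 of 520 sets of 4 values had one. The nominal rate of 1 in 20 is no yardstick for this count. The genes share the same libraries, and some were chosen after their values were seen. LiTra 4 stood alone for Krt6a at 12791 CPM, Birc5 at 42.3, Myc at 43.4, Muc5b at 13.9, Tff2 at 0.573, Dcpp1 at 0.39 and Dcpp3 at 0.275, each the highest LiTra value. LiTra 3 was the lone highest for Cxcl9 at 50.6 CPM, Runx2 at 60.3 and Tpcn1 at 21.7. LiTra 1 was the lone highest for Tgm3 at 513.1 CPM and Sprr2k at 22.5 and the lone lowest for Myh11 at 7.96. LiTra 2 was the lone highest for Fjx1 at 12.5 CPM and the lone lowest for Npat at 29.9 and F10 at 5.77.

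Co 4 was the lone highest Co library for Casp1 at 142 CPM, Cxcl9 at 59.5, Cxcl10 at 17.6, Gbp5 at 6.27, Oas2 at 6.08, Ccl2 at 3.73, Prnd at 1.9, Il24 at 1.27, Saa1 at 0.37 and Il5 at 0.291. Several of these are interferon targets: Cxcl9, which attracts T cells, had 0.38, 0.667, 50.6 and 3.48 CPM in LiTra 1 to 4, against 1.6, 1.41, 1.51 and 59.5 CPM in Co 1 to 4, so that 1 library in each group stood high. Co 2 was the lone lowest for Ckmt2 at 3.11 CPM, Fabp3 at 2.61, Mb at 12.6 and Il33 at 42.7 and the lone highest for Clec4d at 7.76. Co 1 was the lone lowest for Odam at 281 CPM, Aldh1a3 at 41.3, Icam1 at 11.5 and Cfp at 5.12 and the lone highest for Gpd1 at 22.3 and Ciita at 6.39. Co 3 was the lone highest for Sp7 at 41.4 CPM. No reason for these was tested.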

How the results depend on the processing

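For LiTra against Co the 4611 called genes became 2056 at an adjusted p under 0.01 and 1855 when a 2-fold change was also required. DESeq2 called 5661 genes, of which 4577 were among the 4611, limma-voom 5887, the fit of the compared groups alone 5293, no filter 3713 and library totals 4631, and single omissions gave 3189 to 4104. For LiTra against Li the 21 called genes became 1413 with DESeq2, 828 with limma-voom, 184 with a filter of CPM over 1 in 4 libraries, 143 with the replicate block, 5 with a 2-fold minimum, 1 in the groups compared alone, 0 with library totals or at an adjusted p under 0.01, and 0 to 921 in single omissions. The interaction went from 0 to 183 genes with DESeq2 and gave 0 to 1 in single omissions. For gingiva minus bone the 2796 became 16 with library totals, 5088 with limma-voom, 1066 at an adjusted p under 0.01 and 1443 with a 2-fold minimum. The cause of these moves was not tested, beyond the stricter thresholds. No named gene turned its direction with a call under any setting run, but 95 of 322 gene results lost their call under at least 1 setting. The 322 include genes not called in the main fit, such as Arntl and Cd163, which had no call to lose. Same-numbered LiTra and Co libraries did not deviate together (correlations of −0.05 to 0.09), so their numbers were not taken as pairs. The replicate block gave 4595 genes for LiTra against Co. These correlations do not bear on same-numbered gingiva and bone libraries, which the main fit did not pair. A block for each such gingiva and bone pair gave 2551 genes for gingiva minus bone, 2245 of them among the 2796. Genes near 0 in a group are limited by depth, and their fitted fold changes are no bounds.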

Other observations

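The members of further gene groups named here were chosen after their values were seen. Of 10 heat shock genes 3 rose and 2 fell. Hspa8, a cytosolic chaperone, had 2452, 2101, 2194 and 2435 CPM in LiTra 1 to 4, against 1369, 1422, 1259 and 1448 CPM in Co 1 to 4 (0.74 ± 0.09, edgeR adjusted p = 0.00024), and Hsp90aa1 changed by 0.59 ± 0.09. Bag3, a co-chaperone induced by stress, had 20.2, 20.6, 20.6 and 21.7 CPM in LiTra 1 to 4, against 37, 39.1, 38.6 and 42.8 CPM in Co 1 to 4 (−0.92 ± 0.25). None of these groups overlapped. Of 15 immediate early genes 1 rose, Dusp1, called in 1 of 8 single omissions, that of LiTra 2, and 1 fell, Myc, with 32.5, 34.2, 33.2 and 43.4 CPM in LiTra 1 to 4, against 44.5, 59, 54.7 and 64.5 CPM in Co 1 to 4 (−0.64 ± 0.16).

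Of 23 antimicrobial genes 6 rose and 1 fell. Lyz2, the lysozyme of myeloid cells, had 484, 376, 614 and 528 CPM in LiTra 1 to 4, against 94.8, 123, 122 and 94.1 CPM in Co 1 to 4 (2.21 ± 0.43), while Defb4, an epithelial defensin, had 189, 148, 139.7 and 99.7 CPM in LiTra 1 to 4, against 345, 247, 423 and 429 CPM in Co 1 to 4 (−1.32 ± 0.34). Hdc, which makes histamine, was the larger of the 2 increases among 12 mast cell and basophil genes, with 115, 46.1, 28 and 84.1 CPM in LiTra 1 to 4, against 4.74, 11.1, 6.54 and 4.68 CPM in Co 1 to 4 (3.33 ± 0.91), lost without Co 1, Co 3 or Co 4. Of 14 dendritic cell genes 1 rose, Itgax, again called without LiTra 2 and in no other single omission. Of 3 melanocyte genes 1 rose, Mitf, which osteoclasts also use. Of 10 plasma cell genes 1 fell, Prdm1, lost without Co 3, Co 4, LiTra 2 or LiTra 4, and of 9 ligament and tendon genes 1 fell, Ostn, lost without Co 1, Co 2, Co 3, LiTra 2 or LiTra 4. No gene was called among 9 taste and neural, 11 erythroid and 9 mitochondrially encoded genes.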
